A study of Homo sapiens with 6 samples.

Results

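The genes described here are 10 genes of the hepatic acute phase response and of the interleukin 6 (IL6) receptor pathway, taken by name from the 23228 genes of the deposited tables. They are CRP, SAA1, SAA2, SAA4, ORM1, ORM2, LBP, IL6R, IL6ST and SOCS3. RNA-seq was performed on Hep3B, an established human hepatocellular carcinoma line grown in RPMI medium, in 3 control libraries and 3 libraries labelled PELP1-KD. Control cells carried a non-targeting shRNA from lentiviral particles, and the other cells carried lentiviral shRNA against PELP1, a scaffold protein of chromatin and ribosome assembly complexes. Cells of both groups are thus transduced, and the PELP1-KD cells were pooled stable clones after puromycin selection. Their titles name the first shRNA while the protocol names both, so which one was used is uncertain. Nothing in the labels says that replicates came from separate cultures. The p values thus weigh the group difference against the spread between libraries of a group, which may be technical.

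The acute phase response is the change in plasma protein output by which the liver answers infection or injury. IL6 binds its receptor chain IL6R, which then pairs with gp130, the signal-transducing chain encoded by IL6ST and shared by several related cytokines. Kinases of the JAK family attached to gp130 phosphorylate STAT3, which enters the nucleus and turns on acute phase genes together with C/EBP and NF-kappaB factors, and also turns on SOCS3, an inhibitor that blocks the receptor complex. C-reactive protein (CRP) and the serum amyloid A proteins SAA1 and SAA2 are the classical strongly induced products in human liver, whereas SAA4 is made constitutively. ORM1 and ORM2 encode orosomucoid, also called alpha-1-acid glycoprotein, and LBP encodes the lipopolysaccharide-binding protein.

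Of the 10 genes, 9 passed the filter on low counts, and 8 of these 9 differed between the groups at an adjusted p below 0.05 (edgeR). SAA1, SAA2, SAA4, ORM1 and ORM2 lay lower in the PELP1-KD-labelled group, and IL6R, IL6ST and SOCS3 were higher. LBP did not pass the threshold and CRP was too rare to be tested. Differences were common in these libraries, since 53.6% of the 14537 tested genes had an adjusted p below 0.05, 26.7% lower and 26.8% higher. The groups did not overlap for 7 of the 9 genes, a pattern seen for 58.8% of all tested genes. Of all tested genes, 7.64% were called with a change of at least 2-fold, 2.85% higher and 4.79% lower. SAA1 alone of the members was lower by that much and none was higher. Of the tested members, 55.6% were called lower and 33.3% higher, the second share being near that of all tested genes. Genes within the SAA family and within the ORM family share exon sequence or reads in part. The share called lower thus does not rest on separate results. Among the 10 genes, those of the SAA and ORM families thus lay below control. IL6R, IL6ST and SOCS3 lay above it, IL6ST with overlap between the groups.

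**Figure D1:**
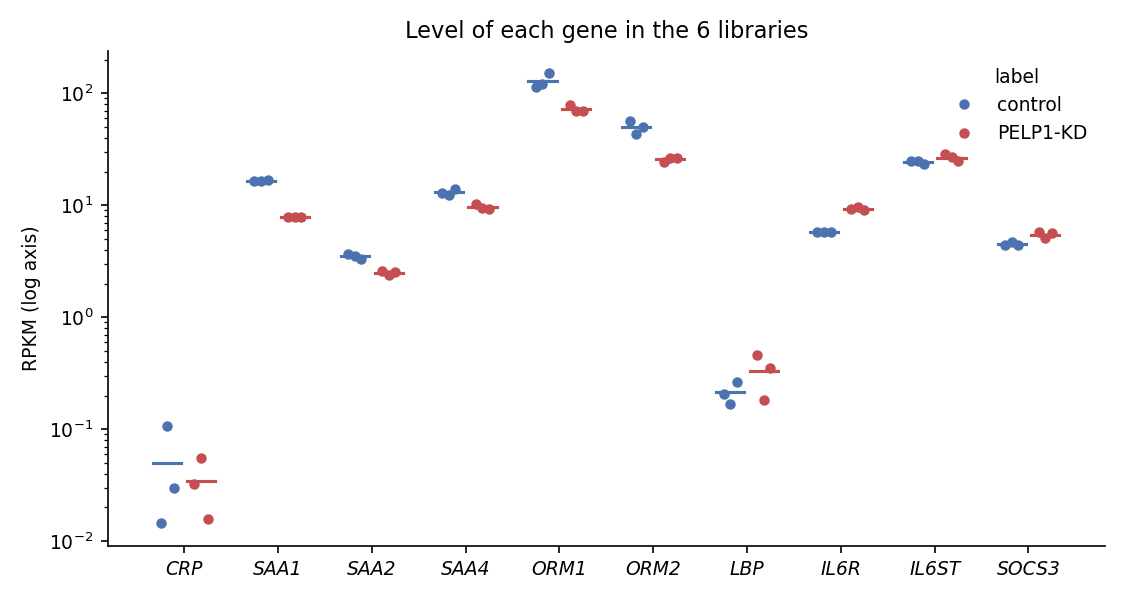
Level of each of the 10 genes in RPKM (reads per kilobase of exon, scaled to library size, log axis) in the 3 control libraries (blue) and the 3 libraries labelled PELP1-KD (red); points are libraries and bars are group means. ORM1 is the most abundant in both groups, CRP is at the limit of detection, and the 3 points of one group lie apart from the other for SAA1, SAA2, SAA4, ORM1, ORM2, IL6R and SOCS3.

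Reads on genes numbered 26758363 to 34456542 per library. PELP1 itself had 4970 ± 115 normalized reads (SD, n = 3) in control and 4695 ± 238 (SD, n = 3) in the libraries labelled PELP1-KD, 94.5% of control, with a log2 fold change of −0.08 ± 0.04 (SE, adjusted p = 0.101 from edgeR). With the replicate number as a block its adjusted p was 0.0106. The values did not overlap, at 4893 to 5102 normalized reads in control and 4421 to 4840 in the libraries labelled PELP1-KD. The paper reports less PELP1 protein in Hep3B PELP1-KD cells by Western blot, and protein is not measured here. Because the targeted RNA lay close to control, groups are named by their labels throughout. Of 8 genes taken as hepatocyte markers all were abundant, with summed normalized reads of 795960 to 808706 in control and 684513 to 698801 in the libraries labelled PELP1-KD, 6 of them lower and 2, AFP and HNF4A, higher. Of 10 macrophage and leukocyte genes, 6 stayed under 10 reads in every library, and CD163 and AIF1 had 0 reads in all 6, where a count of 0 allows up to 3 reads a library. The summed level of that list, which rests on LYZ and CD68, went from between 5481 and 5848 normalized reads to between 3382 and 3484, with LYZ lower (−1.55 in log2) and CD68 higher (0.48). Of 10 stellate and endothelial genes, 7 stayed under 10 reads in every library, and the sum was 513 to 584 in control and 714 to 776 in the other group, with LUM higher (0.92 in log2) and PDGFRB lower (−2.13). The 6 biliary genes, led by KRT19, summed to 21319 to 22206 in control and to 32699 to 34635 in the libraries labelled PELP1-KD. Most of that rise was KRT19, with means of 12994 and 24212. EPCAM and CFTR were also higher, SOX9 and MUC1 were not called, and KRT7 was too rare to be tested. The part of these shifts in the results was not tested.

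Normalized reads are reads divided by the library's scaled size. In bulk RNA, fewer cells of a kind and less RNA per cell cannot be told apart. SAA1 maps to chromosome 11 (hg19, 18287808 to 18291523) on the plus strand. It had 347, 349 and 357 normalized reads in control, against 166, 167 and 168 in the PELP1-KD-labelled group. The 3 values of each group lay within 10 reads of each other, and the groups were far apart. The log2 fold change was −1.07 ± 0.09 (SE, 95% confidence interval −1.31 to −0.84, adjusted p = 2.26e-09), so that 47.5% of the control level was left. SAA2 lies on the opposite strand from 18259780 to 18270221, 17.6 kb from SAA1. It had 270, 257 and 241 normalized reads in control, against 188, 174 and 185 in the PELP1-KD-labelled group. It lay at 71.3% of control, with a log2 fold change of −0.49 ± 0.09 (SE, adjusted p = 0.000203).

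SAA4 lies 1.40 kb beyond SAA2 on the same strand, from 18252902 to 18258384. It had 271, 258 and 290 normalized reads in control and 215, 196 and 192 in the other group, again without overlap. In log2 the change was −0.44 ± 0.09 (SE, adjusted p = 0.000464), which leaves 73.6% of control. Reads on the constitutive member of the family were thus fewer, as were those on the inducible ones. A read-through gene, SAA2-SAA4, covers 81.8% of the exon bases of SAA4 and 13.1% of those of SAA2. A read on such bases was counted for each gene it touched, so these genes share reads and are not separate results. A fall of SAA4 cannot be told apart from a fall of the read-through transcript. Reads entered for SAA2-SAA4 were lower by 0.55 on the log2 scale (standard error 0.08, adjusted p = 5.19e-06). All of its 850 exon bases are shared with SAA2 and SAA4, so this value is no separate measure of the read-through transcript.

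SAA1 and SAA2 are near-identical in part. Of the 628 stretches of 50 bases in the SAA1 exons of hg19, 164 (26.1%) also occur in SAA2, against 7.19% of those in SAA2, and no stretch of SAA4 occurs in either. Reads from the shared stretches match several places and were entered as fractions where they were kept, so the division between SAA1 and SAA2 is uncertain. Their sum does not depend on that division. It went from 607 ± 9.48 normalized reads (SD, n = 3) to 349 ± 7.37 (SD, n = 3), or in log2 −0.80 ± 0.07 (SE, adjusted p = 6.16e-09). The ratio of SAA1 to SAA2 reads within a library was 1.29, 1.36 and 1.48 in control, and 0.88, 0.96 and 0.91 in the PELP1-KD-labelled group. SAA1 thus had more reads than SAA2 in each control library and fewer in each of the others (p = 0.1 by exact two-sided permutation, the smallest that 3 against 3 allow). The annotated exons of SAA1 are shorter (677 bases against 2331 for SAA2), and per exon base SAA1 stayed above SAA2 in every library. In the libraries labelled PELP1-KD that order rests on these lengths, since SAA1 had fewer reads there. Means were 16.5 against 3.49 RPKM (reads per kilobase of exon, scaled to library size) in control and 7.84 against 2.49 in the PELP1-KD-labelled group.

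ORM1 and ORM2 lie side by side on chromosome 9 of hg19, ORM1 from 117085303 to 117088759 and ORM2 from 117092069 to 117095536, both on the plus strand and 3.31 kb apart. ORM1 had 3021, 3206 and 3989 normalized reads in control, against 2084, 1818 and 1848 in the PELP1-KD-labelled group. Control replicate 3 stood above the other controls, and the lowest control still lay above the highest library of the other group. The log2 fold change was −0.83 ± 0.12 (SE, 95% confidence interval −1.17 to −0.49, adjusted p = 0.00201). ORM2 had 1508, 1142 and 1331 normalized reads in control and 653, 699 and 702 in the other group, a log2 fold change of −0.96 ± 0.08 (SE, adjusted p = 3.28e-08). Here control replicate 1 was the highest. The controls of both genes varied more than those of the SAA genes, with a coefficient of variation of 15.1% for ORM1 and 13.8% for ORM2 against 1.43% for SAA1 and 5.91% for SAA4. The SAA1 value is less than counting error alone gives at its number of reads, so it is no measure of how steady the gene is.

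The exons of ORM1 and ORM2 share 436 stretches of 50 bases, 55.2% of those of ORM1 and 54.8% of those of ORM2. Summed, the pair fell from 4732 ± 517 to 2602 ± 119 normalized reads (mean ± SD of 3), which is −0.86 ± 0.06 in log2 (SE, adjusted p = 5.4e-08). The ORM1 to ORM2 ratio was 2.00, 2.81 and 3.00 in control, against 3.19, 2.60 and 2.63 in the PELP1-KD-labelled group, so the groups overlapped (two-sided exact permutation test, p = 0.7).

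**Figure D2:**
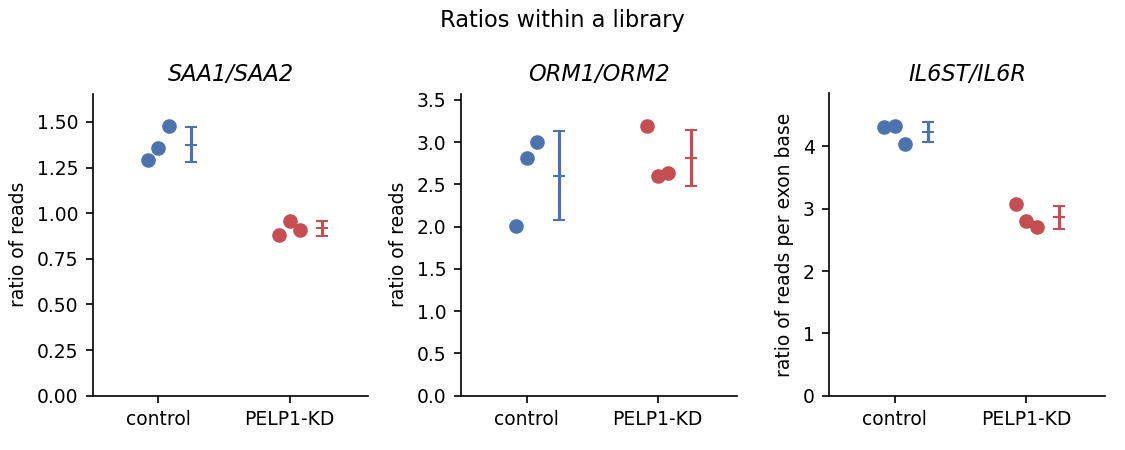
Ratio of SAA1 to SAA2 reads, of ORM1 to ORM2 reads, and of IL6ST to IL6R reads per exon base, within each library; points are libraries, and bars are the mean ± SD of 3. The SAA1 to SAA2 and IL6ST to IL6R ratios are lower in each library labelled PELP1-KD than in each control, and the ORM1 to ORM2 ratios overlap.

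CRP was at the limit of detection in Hep3B. It maps to chromosome 1 (hg19, 159682079 to 159684379), and had 1, 7 and 2 reads in control, against 2, 3 and 1 in the PELP1-KD-labelled group. Over each group these are 10 and 6 reads, a ratio of 0.68 with an exact 95% counting interval of 0.20 to 2.07, so a difference was not detectable at this depth. LBP, which carries bacterial lipopolysaccharide to CD14 and TLR4, was rare as well. On chromosome 20 from 36974885 to 37005653, it had 13, 10 and 16 reads in control, against 26, 9 and 20 in the PELP1-KD-labelled group. PELP1-KD replicate 2 lay within the control range after normalization, at 10.5 normalized reads against 9.58 to 15.3, and the other libraries of its group lay above it. In log2 the change was 0.65 ± 0.36 (SE, 95% confidence interval −0.36 to 1.66, adjusted p = 0.141), and the LBP log2 fold change was 0.92 without PELP1-KD replicate 2 (adjusted p = 0.044) and 0.34 without PELP1-KD replicate 1 (adjusted p = 0.528).

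IL6R, the ligand-binding receptor chain, rose most clearly. It maps to chromosome 1 (hg19, 154377669 to 154441926) and had 1185, 1194 and 1187 normalized reads in the control libraries. The libraries labelled PELP1-KD had 1908, 1984 and 1877. The controls had a coefficient of variation of 0.405%, which is less than counting error alone gives at this number of reads. Each value of the other group was far above them. The level was 162% of control, with a log2 fold change of 0.69 ± 0.05 (SE, 95% confidence interval 0.57 to 0.82, adjusted p = 1.49e-10). The tables give 1 value per gene, so the transcripts of the membrane-bound and the soluble receptor were not told apart.

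IL6ST, the gp130 chain, moved little. It maps to chromosome 5 (hg19, 55230925 to 55290821) and had 7051, 7133 and 6624 normalized reads in control, against 8095, 7659 and 7026 in the PELP1-KD-labelled group. PELP1-KD replicate 3 lay below the 2 higher controls, so the groups overlapped, while within each of the 3 same-numbered pairs the PELP1-KD-labelled library was higher. The log2 fold change was 0.13 ± 0.05 (SE, 95% confidence interval 0.01 to 0.26, adjusted p = 0.0204). The call on the IL6ST log2 fold change was lost without control replicate 3 (0.10, adjusted p = 0.0971), PELP1-KD replicate 1 (0.08, adjusted p = 0.118) or PELP1-KD replicate 2 (0.12, adjusted p = 0.077). With the replicate number as a block it was 0.13 ± 0.03 (SE, adjusted p = 4.63e-05). Per exon base, the ratio of IL6ST to IL6R was 4.31, 4.33 and 4.05 in control, against 3.08, 2.80 and 2.71 in the other group. The excess of the signalling chain over the ligand-binding chain at the RNA level was thus smaller in each library labelled PELP1-KD (p = 0.1 by exact two-sided permutation, the smallest possible).

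SOCS3, the STAT3-induced inhibitor that acts on gp130, maps to chromosome 17 (hg19, 76352859 to 76356158). It had 381, 406 and 382 normalized reads in control, against 491, 438 and 482 in the PELP1-KD-labelled group. The lowest value of the second group lay above the highest control. In log2 the change was 0.27 ± 0.07 (SE, 95% confidence interval 0.07 to 0.48, adjusted p = 0.00399), to 121% of control.

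**Figure D3:**
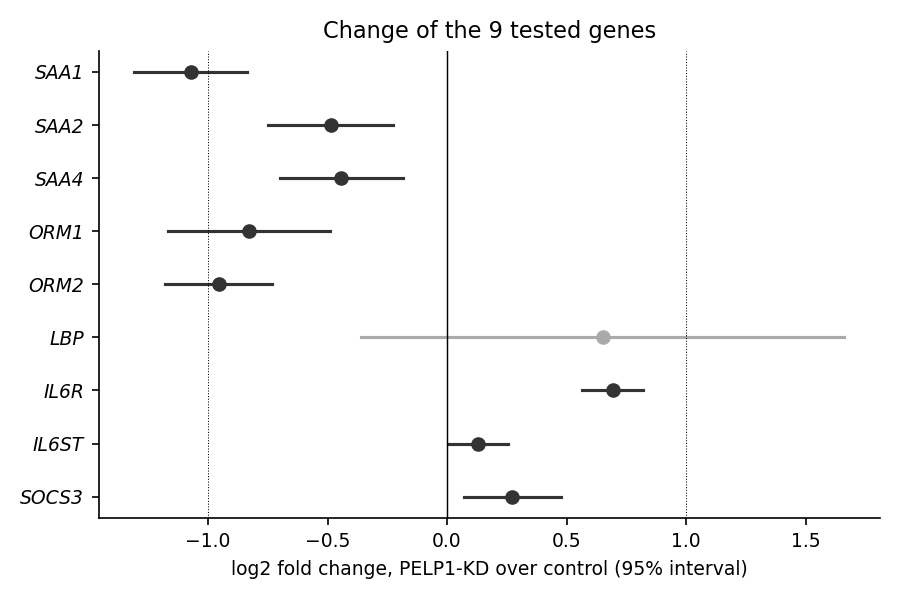
Log2 fold change of the 9 tested genes in the libraries labelled PELP1-KD over control, with 95% intervals; black marks an adjusted p below 0.05 and grey none, and dotted lines mark a 2-fold change. The 5 serum amyloid and orosomucoid genes lie left of 0, and IL6R, IL6ST and SOCS3 lie right of it, with IL6ST closest to 0.

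Per length, ORM1 was the most abundant of the 10 genes in control at 129 ± 19.5 RPKM (SD, n = 3), followed by ORM2 at 50.0 ± 6.91, IL6ST at 24.4 ± 0.96, SAA1 at 16.5 ± 0.24 and SAA4 at 13.1 ± 0.77. IL6R, SOCS3 and SAA2 had 5.76 ± 0.02, 4.54 ± 0.17 and 3.49 ± 0.19 RPKM, and LBP and CRP had 0.21 ± 0.05 and 0.05 ± 0.05. Each of these neighbours was separated by more than its spread over the 3 libraries. In the libraries labelled PELP1-KD the order changed. ORM1 still led at 72.7 ± 5.54 RPKM, but IL6ST (26.7 ± 1.89) and ORM2 (25.8 ± 1.03) were no longer apart, and neither were SAA4 (9.61 ± 0.59) and IL6R (9.32 ± 0.27). IL6R also came to lie above SAA1, at 7.84 ± 0.05 RPKM. The value of SAA2 rests on 2331 annotated exon bases, more than the 677 of SAA1, so its RPKM is low for its reads.

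Promoter sequences were taken from RefSeq on build GRCh38.p14, as 250 bases before and 50 after the annotated start, for the 6 of 10 genes listed there (SAA1, SAA2, ORM2 and LBP were not among them). ORM1, SAA4 and IL6R are shown since they stand for the genes that fell and for the one that rose most. Capitals mark letters matching C/EBP (TTGCNNAA), NF-kappaB (3 G, any 5 bases, 2 C) or STAT (TTCNNNGAA) patterns on either strand, where matches of one pattern may overlap.
ORM1 (chr9:114322848-114323147, plus strand): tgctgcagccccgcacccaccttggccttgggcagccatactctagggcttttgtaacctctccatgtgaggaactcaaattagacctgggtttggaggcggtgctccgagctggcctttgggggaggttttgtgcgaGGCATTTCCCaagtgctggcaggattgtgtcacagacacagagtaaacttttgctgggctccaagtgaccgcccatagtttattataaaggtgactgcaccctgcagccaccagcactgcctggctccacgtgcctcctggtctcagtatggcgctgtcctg
SAA4 (chr11:18236753-18237052, minus strand): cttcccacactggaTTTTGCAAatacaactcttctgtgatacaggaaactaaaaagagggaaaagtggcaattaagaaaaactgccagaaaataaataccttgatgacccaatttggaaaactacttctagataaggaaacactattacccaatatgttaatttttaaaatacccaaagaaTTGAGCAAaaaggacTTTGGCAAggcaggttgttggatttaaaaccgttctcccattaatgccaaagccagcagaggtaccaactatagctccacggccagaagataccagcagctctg
IL6R (chr1:154405093-154405392, plus strand): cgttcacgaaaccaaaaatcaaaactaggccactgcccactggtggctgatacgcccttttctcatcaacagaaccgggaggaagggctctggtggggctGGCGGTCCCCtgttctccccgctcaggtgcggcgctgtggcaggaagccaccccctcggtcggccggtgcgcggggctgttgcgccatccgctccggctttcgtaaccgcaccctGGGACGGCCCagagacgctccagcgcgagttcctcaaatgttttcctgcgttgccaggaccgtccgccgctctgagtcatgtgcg
The SAA4 promoter held 3 C/EBP matches, 236, 69 and 54 bases before the start. A C/EBP match was found in 10.5% of the 35116 RefSeq promoters of this length. ORM1 held 1 NF-kappaB match, 112 bases before the start, and IL6R held such letters at 150 and at 35 bases before it. That loose pattern was present in 58.7% of all promoters. The STAT pattern, present in 7.66%, was found in none of the 6 listed genes in this window, which says only that these letters are not in it. A match is a description of letters and not a binding site.

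Other plasma proteins were then examined, since the acute phase response includes proteins that rise and proteins that fall. Counts in this and the following lists stand beside 26.7% lower and 26.8% higher among all tested genes. Of 22 further positive acute phase genes, 20 were tested, of which 13 were lower, 1 was higher and 6 were not called, with a median log2 fold change of −0.30 against 0.00 over all tested genes. The complement inhibitor genes SERPING1 and C4BPA changed by −0.80 and −1.24, and the hepatokine gene FGL1 by −0.68. The only one higher was FGB, the fibrinogen beta chain, with 0.17. Of the 10 negative acute phase genes all 10 were lower, with a median of −0.59. The vitamin D-binding protein gene GC changed by −4.94, fetuin-A (AHSG) by −3.03, the coagulation factor gene F12 by −1.27 and albumin (ALB) by −0.61. Genes of both classes were thus lower in the libraries labelled PELP1-KD.

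Among the ligands that signal through gp130, 7 of 9 were tested, with 3 higher and 1 lower. That share of calls is near the 53.6% of all tested genes. IL6 was rare, at 8.88 ± 5.49 normalized reads (SD, n = 3) in control and 27.3 ± 3.48 (SD, n = 3) in the libraries labelled PELP1-KD, a log2 fold change of 1.63 ± 0.38 (SE, adjusted p = 0.00118). CLCF1, a cytokine that acts through the CNTF receptor, rose by 0.51, and EBI3, a subunit of IL27, by 0.38. LIF, which binds the LIF receptor, fell from 235 ± 18.9 to 139 ± 4.77 normalized reads (mean ± SD of 3), which is −0.75 in log2. OSM had 0 reads in all 6 libraries.

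All 6 other receptor chains of the family were tested and called, 4 higher and 2 lower. Under the alternative settings the number called higher was 3 to 4. LIFR, which pairs with gp130 for LIF, rose from 2353 ± 133 to 3830 ± 294 normalized reads (mean ± SD of 3), which is 0.70 in log2, beside 0.69 for IL6R. OSMR and IL27RA rose by 0.30 and 0.34. IL11RA had a log2 fold change of −0.65.

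Of 12 kinases, STAT factors and adaptors, 7 were higher, 1 was lower and 4 were not called, with a median of 0.17. JAK1, the main kinase on gp130, rose by 0.46, STAT5A by 0.54 and SOS1, a RAS exchange factor, by 1.47. The adaptor gene SHC1 fell by 0.44 on the log2 scale. STAT3, chosen with its value known, had 6898 ± 65.7 normalized reads in control and 7828 ± 129 in the other group (mean ± SD of 3), which is 0.18 ± 0.03 in log2 (SE, adjusted p = 0.000127). The files hold no measure of phosphorylated STAT3.

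Of 13 further inhibitors and sheddases, 4 were higher, 3 lower and 6 not called, a share of calls near the 53.6% of all tested genes. SOCS2, an inhibitor of growth hormone signalling, rose from 172 ± 21.4 to 557 ± 14.9 normalized reads (mean ± SD of 3), which is 1.70 in log2. SOCS6 and SOCS4 rose by 0.22 and 0.23, and SOCS7, PIAS1 and PIAS3 changed by −0.19, −0.27 and −0.29. PIAS3 encodes a protein that inhibits STAT3. SOCS1 (0.24, adjusted p = 0.103) and the sheddase genes ADAM10 (−0.07, adjusted p = 0.127) and ADAM17 (0.07, adjusted p = 0.237), chosen with their values known, were not called.

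Of 17 tested genes known as STAT3 or IL6 targets, 9 were higher, 5 lower and 3 not called, with a median of 0.25. The transcription factor genes IRF1, CEBPB and CEBPD rose by 1.30, 0.59 and 0.58. MCL1, which protects from apoptosis, BCL6 and TIMP1, a metalloproteinase inhibitor, changed by −0.40, −0.43 and −2.42. TIMP1 was rare in both groups, at 49.4 ± 14.4 and 9.18 ± 0.18 normalized reads (SD, n = 3 each). Genes of this list thus moved both ways.

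Of 15 transcription factors that act on acute phase promoters, 8 were higher, 2 lower and 5 not called, with a median of 0.10. The alternative settings gave 6 to 8 higher and 1 to 2 lower. NFKB2 and RELB, the subunits of the noncanonical NF-kappaB dimer, rose by 0.51 and 0.34, and HNF4A by 0.23. RELA, the main NF-kappaB subunit, changed by −0.15. The RELA log2 fold change lost its call when control replicate 2 or 3 or PELP1-KD replicate 1 or 2 was left out, where it lay between −0.15 and −0.10 (adjusted p from 0.0607 to 0.111).

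SAA genes also answer IL1 through NF-kappaB. Of 18 tested genes of that response, 8 were higher, 4 lower and 6 not called, with a median of 0.08. Alternative settings gave 7 to 9 higher and 3 to 6 lower. The chemokine gene CCL2 rose from 71.3 ± 20.5 to 315 ± 12.3 normalized reads (mean ± SD of 3), which is 2.15 in log2, and the feedback genes TNFAIP3 and NFKBIZ rose by 0.83 and 0.47. CCL20, the inhibitor gene NFKBIE and the receptor gene IL1R1 had log2 fold changes of −0.58, −0.41 and −0.23. Among partners of LBP in the recognition of lipopolysaccharide, TLR4 and its co-receptor LY96 had 0 reads in all 6 libraries. CD14 fell from 176 ± 25.9 to 89.0 ± 1.76 normalized reads (mean ± SD of 3), which is −0.98 in log2, and the adaptor gene TICAM1 fell by 0.77 on the log2 scale. TLR2 was rare and rose by 0.83.

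**Figure D4:**
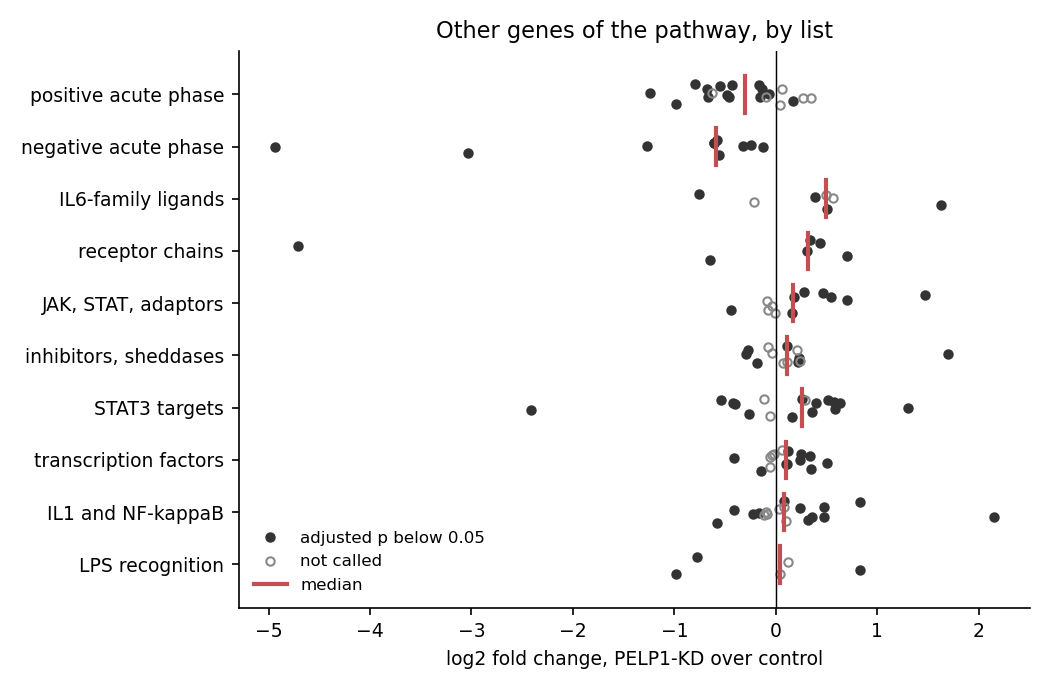
Log2 fold change of the tested genes of 10 lists in the libraries labelled PELP1-KD over control; filled points have an adjusted p below 0.05, open points do not, and red bars are list medians. The medians of the positive and negative acute phase lists, −0.30 and −0.59, lie left of 0, and those of the other lists lie right of it, between 0.04 and 0.50.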

How the data were processed

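RNA-seq tables of 6 Hep3B libraries, 3 control and 3 labelled PELP1-KD, were grouped by their labels. The paper names TopHat2 and HTSeq, whereas the submitters' processing notes name bcl2fastq, HISAT2, SAMtools and featureCounts, all on hg19. Per the file headers, featureCounts 1.5.0-p1 counted reads by strand on exons per gene, with a filter on mapping quality. The authors thus deposited estimated counts without normalization, in which reads matching several places were entered as fractions. A read on several genes was entered for each, and 70.6% of values of 124 genes lying inside another gene were whole (within 0.004), against 81.6% for 12921 genes without overlap. The labels conflict on single or paired reads and on mRNA selection or ribosomal RNA removal. Stretches of 50 bases follow the single-read length that one source gives.

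Values were rounded. Of 23228 genes, 14537 passed filterByExpr. Fold changes come from edgeR 4.0.16 (TMM, robust glmQLFit, glmQLFTest, R 4.3.3), with Benjamini-Hochberg adjustment over all tested genes and a threshold of 0.05. Standard errors (SE) were derived from the fold change and F, and 95% intervals use 4 degrees of freedom. RPKM used TMM-scaled library sizes and exon bases. The median standard error was 0.063. Intervals of read ratios cover counting error only. edgeR and DESeq2 1.42.0 were tested on simulated data. Replicates of a group differed by more than sampling noise (chi-square per degree of freedom 1.94 to 7.02). Libraries with the same number deviated together (correlations 0.336, 0.247 and 0.666 over 6370 genes), although control 2 with PELP1-KD 1 (0.418) and control 1 with PELP1-KD 2 (0.244) correlated as well, so that only number 3 stood apart. The main fit was unpaired, and the numbers entered as a block in an alternative. The members and lists were chosen with earlier results of these data known. Of each pathway list, the 3 called genes with the smallest p in each direction and those changed 2-fold were named, except 2 genes that are counted but not reported here by name. Alternatives were other normalizations, DESeq2, other filters, unrounded counts, the replicate block and each library left out.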

Additional observations from a re-analysis of the deposited data

How the results depend on the processing

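The 5 genes called lower kept that call under all 13 alternatives, and so did IL6R and SOCS3 for higher. The log2 fold change of SAA1 stayed between −1.08 and −1.06, of ORM1 between −0.91 and −0.70, and of IL6R between 0.67 and 0.71. Leaving out single libraries, LBP lay between 0.34 and 0.92, the IL6ST log2 fold change between 0.082 and 0.18, the PELP1 log2 fold change between −0.10 and −0.040, and the number of members at least 2-fold lower between 1 and 2, the second being ORM2 without control replicate 2 (−1.05). With the replicate block, the PELP1 log2 fold change was called (−0.083, adjusted p = 0.0106), as it was without PELP1-KD replicate 3, ORM1 came close to the threshold (−0.82, adjusted p = 0.0498), and no call on a member changed. Members called higher numbered 2 to 3. The pathway lists and the neighbouring genes together held 48 genes called higher and 45 lower, and 42 to 51 and 42 to 52 under the alternatives. These counts include SAA2-SAA4. Calls were also about as frequent in each direction over all tested genes, with 26.8% higher and 26.7% lower. At this depth LBP and CRP limit what can be said of them.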

Other observations

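Genes beside the members on their chromosomes were also read. Near the SAA cluster, HPS5 (8.69 kb from SAA1), GTF2H1 and SAAL1 were not called, with log2 fold changes of −0.04, −0.09 and −0.14, and LDHA, the lactate dehydrogenase gene 124 kb from SAA1, rose by 0.10 (adjusted p = 0.00726 from edgeR). AKNA, 0.90 kb beyond ORM2, was not called (0.13, adjusted p = 0.0893), whereas the collagen gene COL27A1, 12.3 kb from ORM1 on the other side, fell from 1660 ± 97.7 to 1011 ± 46.5 normalized reads (mean ± SD of 3), which is −0.71 in log2. Near IL6R, the nearby SHE rose by 0.57, and UBE2Q1 and ATP8B2 were not called, with −0.05 and −0.04. Near CRP, DUSP23 at 66.4 kb fell from 96.7 ± 20.3 to 25.1 ± 0.56 normalized reads (mean ± SD of 3). RALGAPB, 95.8 kb from LBP, rose by 0.12, a call lost without control replicate 3 or PELP1-KD replicate 1 or 2 (RALGAPB log2 fold change 0.09 to 0.11, adjusted p 0.0745 to 0.123), and PGS1, 18.6 kb from SOCS3, was not called (0.07). Of the 13 tested neighbours, SAA2-SAA4 included, 3 were higher, 3 lower and 7 not called. SAA2-SAA4 is among the lower ones, but all its exon bases are shared with SAA2 and SAA4. Over all tested genes 26.8% were called higher and 26.7% lower.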
